A study of Mus musculus with 12 samples.

Results

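The genes described here make, lengthen and desaturate long-chain fatty acids. Of 10 genes chosen by name, 9 were among the 12339 genes analysed, namely Acly, Acaca, Fasn, Elovl1, Elovl5, Elovl6, Scd1, Scd2 and Fads1; Fads2 is not analysed here. RNA came from peritoneal macrophages of wild-type (WT) mice and of mice labelled meKO. Because the title of the series concerns protein kinase C epsilon (Prkce) in myeloid cells, meKO is read as its myeloid knockout; the sources used here do not name the Cre driver, the strain or the sex. Every mouse, controls included, received an AAV8 vector at 8 weeks of age. The labels count 8 WT and 8 meKO mice, and nothing says whether each library came from a single mouse. The mice then ate chow or a Western-type high-fat diet (HFD), and 4 weeks after the injection macrophages elicited with thioglycolate were washed from the peritoneum. Each combination of genotype and diet had 3 libraries, 12 in all.

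High-fat diet split the genes into those that rose and those that fell. Averaged over genotypes, the stearoyl-CoA desaturases Scd1 and Scd2 rose 2.58-fold and 2.29-fold, and the elongase Elovl1 rose 1.24-fold. Fasn (fatty acid synthase), Fads1 (a desaturase of polyunsaturated fatty acids), Elovl6 (an elongase of palmitate) and Acly (ATP citrate lyase) fell 2.17-fold, 2.07-fold, 1.87-fold and 1.40-fold. Correction for transcript length and GC content made these falls and the rise of Elovl1 smaller. None of the falls passed in meKO alone, where 0.105% of all genes passed. In WT alone, where 21.3% of all genes passed, the calls leaned on single libraries. Averaged over genotypes, 30.2% of all genes passed. No gene of the set passed a direct test of the difference between the diet effects, where 0.0162% of all genes passed. Acaca and Elovl5 passed in neither direction. In edgeR with all 12 libraries, no gene of the set passed a test between genotypes, where 0.081% of all genes passed on each diet. Other methods and leaving out 1 library gave calls, described with that comparison.

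Fatty acid synthesis starts in the cytosol, where Acly turns citrate into acetyl-CoA, Acaca carboxylates acetyl-CoA to malonyl-CoA, and Fasn builds palmitate from both. Elongases of the ER lengthen the chain, Scd enzymes place a first double bond in saturated chains, and Fads enzymes add double bonds to polyunsaturated ones. Many of these genes are known targets of the sterol regulatory element binding proteins, SREBP-1 and SREBP-2, and Scd1, Scd2 and other lipogenic genes also respond to liver X receptors (LXR), which bind oxidised sterols. In macrophages both systems are known to follow the cholesterol load of the cell.

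Since Fasn, Acly and Elovl6 fell together on HFD while Elovl1 rose, the 250 bases before a listed start site of each are shown. The sequences are RefSeq's on GRCm38.p6, 5′ to 3′ in the direction of the gene; the submitters' processing notes name mm10, the same build. Capitals mark CCAAT or its complement ATTGG (the box bound by NF-Y) and GGGCGG or its complement CCGCCC (the box bound by Sp1). For Elovl1 the first of 2 listed starts is shown. The Fasn and Elovl1 windows lie inside the gene spans given below, before starts within them. The Acly and Elovl6 windows lie just outside their spans. Fads1, which also fell, and Scd1 and Scd2 are not analysed here for this window.
Fasn (chr11:120824548-120824797, minus strand): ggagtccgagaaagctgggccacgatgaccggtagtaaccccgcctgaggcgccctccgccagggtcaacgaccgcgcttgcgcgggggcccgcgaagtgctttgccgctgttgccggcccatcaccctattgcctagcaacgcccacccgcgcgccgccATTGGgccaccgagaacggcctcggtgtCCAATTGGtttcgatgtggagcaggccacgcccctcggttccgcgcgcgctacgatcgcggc
Acly (chr11:100528001-100528250, minus strand): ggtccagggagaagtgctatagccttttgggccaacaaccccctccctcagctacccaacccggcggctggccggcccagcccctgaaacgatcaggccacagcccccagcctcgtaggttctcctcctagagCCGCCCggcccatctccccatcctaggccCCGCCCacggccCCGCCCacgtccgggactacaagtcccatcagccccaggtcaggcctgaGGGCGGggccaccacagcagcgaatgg
Elovl6 (chr3:129532136-129532385, plus strand): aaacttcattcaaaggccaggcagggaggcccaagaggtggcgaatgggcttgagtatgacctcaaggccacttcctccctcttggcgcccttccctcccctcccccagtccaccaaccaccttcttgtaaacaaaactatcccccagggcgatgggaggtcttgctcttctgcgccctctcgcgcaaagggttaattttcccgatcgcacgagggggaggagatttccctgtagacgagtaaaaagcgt
Elovl1 (chr4:118427843-118428092, plus strand): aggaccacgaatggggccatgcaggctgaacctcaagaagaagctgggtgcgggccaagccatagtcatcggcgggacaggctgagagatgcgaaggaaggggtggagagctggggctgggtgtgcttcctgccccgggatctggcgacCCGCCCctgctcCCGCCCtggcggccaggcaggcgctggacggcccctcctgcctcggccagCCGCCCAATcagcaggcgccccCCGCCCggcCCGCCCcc
The Fasn stretch held 3 matches to CCAAT on either strand, 2 of them overlapping, and none to GGGCGG. The Acly stretch held 4 matches to GGGCGG and none to CCAAT, the Elovl1 stretch held 5 and 1, and the Elovl6 stretch held neither. Of 32851 promoter stretches of the same length, 33.8% held CCAAT and 32.7% held GGGCGG. The E-box CACGTG (6.02% of all stretches), TCACNCCAC, a form of the sterol regulatory element (1.05%), and a direct repeat of AGGTCA with 4 bases between, a perfect LXR element (0.0152%), had no match in these 4 stretches. No motif searched was found in the stretches of all 3 of these genes that fell, and a match is a description of a short window and no measure of binding.

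Library totals ran from 25844958 to 37282772 counts. Levels are given in CPM, a gene's share of its library's counts on a fixed scale, after normalisation by the trimmed mean of M-values (TMM). All 8 macrophage markers examined were present, with Cd68 and Adgre1 among them, although Lyz2 stood at 69.3 CPM in meKO chow replicate 2. There the 8 markers summed to 5691 CPM, nearly all of it from the markers other than Lyz2. The other meKO chow libraries had sums of 26540 and 27390 CPM, of which Lyz2 made up most (20300 and 21300 CPM). Prkce lay between 2.01 and 4.44 CPM in the WT libraries and between 0.950 and 1.78 CPM in the meKO libraries. Longer transcripts read relatively higher in WT chow replicates 1 and 2: over 11532 genes, how far each gene stood from its own mean tracked transcript length with Spearman's rho of 0.64 and 0.68. The other 10 libraries had rho from -0.46 to 0.13. The diet effect itself fell with length (rho of -0.57 in WT, -0.34 in meKO). Results for the genes of the set are therefore given also with an offset that removes the trend on length and GC content within each library, and without those 2 libraries.

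Per kilobase of the longest annotated transcript, the genes covered a wide range. Averaged over the 12 libraries, Elovl1 stood highest with 92.9 ± 15.2 CPM per kb (SD, n = 12), followed by Elovl5 (55.3 ± 6.83) and Acly (27.1 ± 6.72). Scd2 had 10.6 ± 4.83 CPM per kb, Fads1 3.68 ± 2.57 and Scd1 2.22 ± 1.06. Acaca (0.699 ± 0.174), Elovl6 (0.246 ± 0.108) and Fasn (0.203 ± 0.108) stood lowest. In this order Scd2 and Fads1, Fads1 and Scd1, and Elovl6 and Fasn had overlapping SD ranges, and the other neighbours did not. The order of the means turned with the group: Fads1 stood above Scd2 in WT chow (6.81 ± 3.86 against 6.47 ± 1.34 CPM per kb, SD, n = 3). That came from WT chow replicate 1 (11.19 against 6.504), while Fads1 lay below Scd2 in replicates 2 (5.296 against 7.784) and 3 (3.945 against 5.108). Scd1 stood above Fads1 in WT HFD (3.41 against 2.05) and in meKO HFD (2.97 against 2.56), though not in meKO HFD replicate 1 (2.867 against 2.89). Fasn rested on 25 to 156 counts per library and Elovl6 on 18 to 103, the lowest counts of the set.

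**Figure D1:**
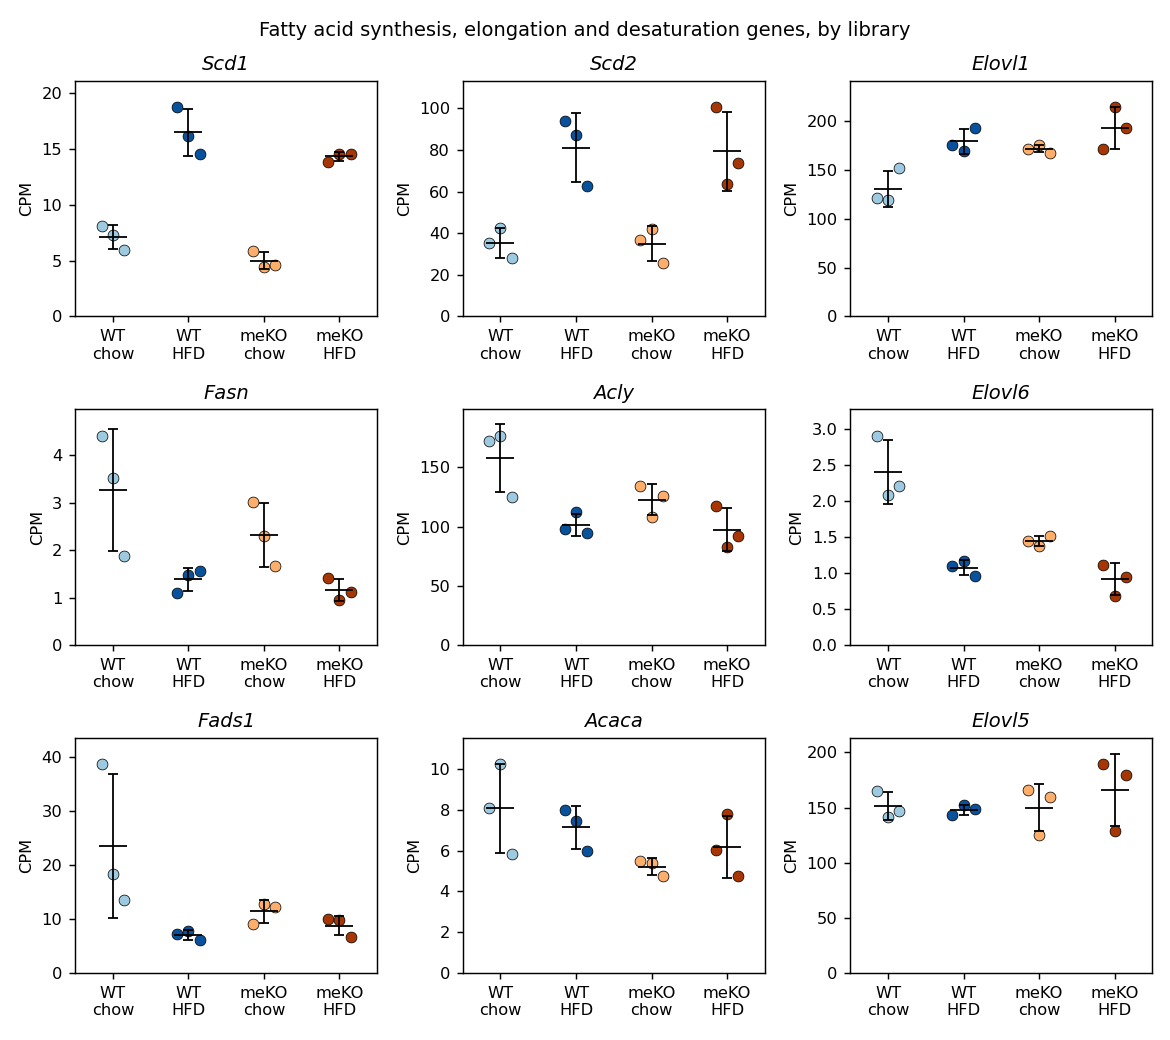
Level of the 9 genes in each library (vertical axes, CPM scaled by TMM, from 0); points are libraries, horizontal bars group means and error bars SD (n = 3 per group). All 6 HFD libraries lie above all 6 chow libraries for Scd1 and Scd2 and below them for Fasn and Elovl6. These CPM carry no correction for length and GC content, after which Fasn overlapped.

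The first question was what the diet changed in WT macrophages. In WT, 7 of the 9 genes passed an adjusted p of 0.05, against 21.3% of all genes: 3 rose (9.5% of all genes) and 4 fell (11.8%). The WT chow and WT HFD libraries did not overlap for these 7 genes, as for 39.3% of all genes. With the offset 6 of 9 passed, against 11.1% of all genes. The median log2 fold change of the 9 genes was -0.18, beside -0.03 over all genes, since rises and falls stood side by side.

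Acly (Entrez gene 104112, chr11:100476352-100528000), which supplies cytosolic acetyl-CoA, had 172.1, 176.8 and 125.1 CPM in the 3 WT chow libraries and 97.6, 112.3 and 94.7 CPM in the WT HFD libraries. Every HFD library lay below every chow library. Its log2 fold change was -0.64 ± 0.16 (SE; edgeR adjusted p = 0.0202), and -0.32 ± 0.09 with the length and GC offset (adjusted p = 0.0375).

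Fasn (Entrez gene 14104, chr11:120805958-120825166), the synthase itself, had 4.41, 3.53 and 1.88 CPM on chow and 1.10, 1.48 and 1.56 CPM on HFD in WT. The chow libraries spread widely, and the lowest of them stood just above the highest HFD library. The log2 fold change was -1.25 ± 0.32 (SE; edgeR adjusted p = 0.0226). With the offset it was -0.48 ± 0.25 and did not pass (adjusted p = 0.205).

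Acaca (Entrez gene 107476, chr11:84129635-84401651), which makes malonyl-CoA, had 8.09, 10.2 and 5.85 CPM in WT chow and 7.99, 7.44 and 5.96 CPM in WT HFD, so the groups overlapped. Its log2 fold change was -0.18 ± 0.22 (SE; edgeR adjusted p = 0.563), and with the offset it was 0.35 ± 0.17 (adjusted p = 0.191). Acaca is uncertain: 52.6% of its stretches of 50 bases also occur in transcripts of the pseudogene Gm5182, and how shared reads were counted is not given in the sources used here.

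Elovl6 (Entrez gene 170439, chr3:129532386-129638495), which lengthens palmitate to stearate, had 2.91, 2.09 and 2.21 CPM in WT chow and 1.10, 1.17 and 0.963 CPM in WT HFD. Every HFD library lay below every chow library, by -1.16 ± 0.25 on the log2 scale (SE; edgeR adjusted p = 0.0132). With the offset the value was -0.91 ± 0.23 (adjusted p = 0.0307).

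Elovl1 (Entrez gene 54325, chr4:118426874-118432953), which makes very long saturated and monounsaturated chains, had 121.1, 118.7 and 151.4 CPM in WT chow and 175.1, 168.6 and 192.4 CPM in WT HFD. The HFD libraries all lay higher, by 0.46 ± 0.12 on the log2 scale (SE; edgeR adjusted p = 0.0223) and by 0.30 ± 0.08 with the offset (adjusted p = 0.0302). Elovl5 (Entrez gene 68801, chr9:77917365-77984519), an elongase of polyunsaturated chains, had 165.4, 141.3 and 147.3 CPM in WT chow and 143.3, 152.1 and 148.6 CPM in WT HFD. Its groups overlapped, and its log2 fold change of -0.03 ± 0.14 (SE) did not pass (edgeR adjusted p = 0.886).

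Scd1 (Entrez gene 20249, chr19:44394450-44407709) had 8.12, 7.25 and 5.95 CPM in WT chow and 18.7, 16.1 and 14.6 CPM in WT HFD. Scd2 (Entrez gene 20250, chr19:44293676-44306864), its neighbour on chromosome 19, had 35.5, 42.5 and 27.9 CPM in WT chow and 93.7, 87.2 and 62.6 CPM in WT HFD. For both desaturases the lowest HFD library stood well above the highest chow library. The log2 fold changes were 1.21 ± 0.15 for Scd1 (SE; edgeR adjusted p = 0.00207) and 1.20 ± 0.22 for Scd2 (adjusted p = 0.0100). The offset raised them to 1.45 ± 0.13 and 1.55 ± 0.19. The pair are near copies in part, but only 4.66% of the 50-base stretches of Scd1 and 4.01% of those of Scd2 occur in a transcript of another gene.

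Fads1 (Entrez gene 76267, chr19:10182877-10196874), which makes arachidonic and eicosapentaenoic acid from their precursors, had 38.7, 18.3 and 13.7 CPM in WT chow and 7.22, 7.88 and 6.17 CPM in WT HFD. WT chow replicate 1 stood far above the other libraries of its group, and every HFD library lay below every chow library. The log2 fold change was -1.74 ± 0.31 (SE; edgeR adjusted p = 0.00853), and -1.54 ± 0.32 with the offset (adjusted p = 0.0190). Without WT chow replicate 1 it was -1.16 ± 0.21 (adjusted p = 0.0363).

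The 7 calls in WT leaned on single libraries. Leaving out WT HFD replicate 3 left 2 of them (Scd1 and Scd2), leaving out WT chow replicate 1 left 3 (these and Fads1), and leaving out WT chow replicate 2 or WT HFD replicate 1 left 4 (these and Elovl6). The loss was general: all genes gave 96 calls without WT HFD replicate 3, 129 without WT chow replicate 1, 319 without WT chow replicate 2 and 460 without WT HFD replicate 1, against 2634 with all libraries. Without both WT chow replicates 1 and 2, Scd1 alone passed (log2 fold change 1.47 ± 0.22, edgeR adjusted p = 0.0323), and all genes gave 15 calls. In that fit WT chow is a single library, assumed to vary like the other groups. Scd2 then stood at 1.54 ± 0.34 (adjusted p = 0.164), Fads1 at -0.95 ± 0.25 and Elovl6 at -1.04 ± 0.34. Fasn, Acly and Elovl1 stood at -0.45, -0.30 and 0.24.

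**Figure D2:**
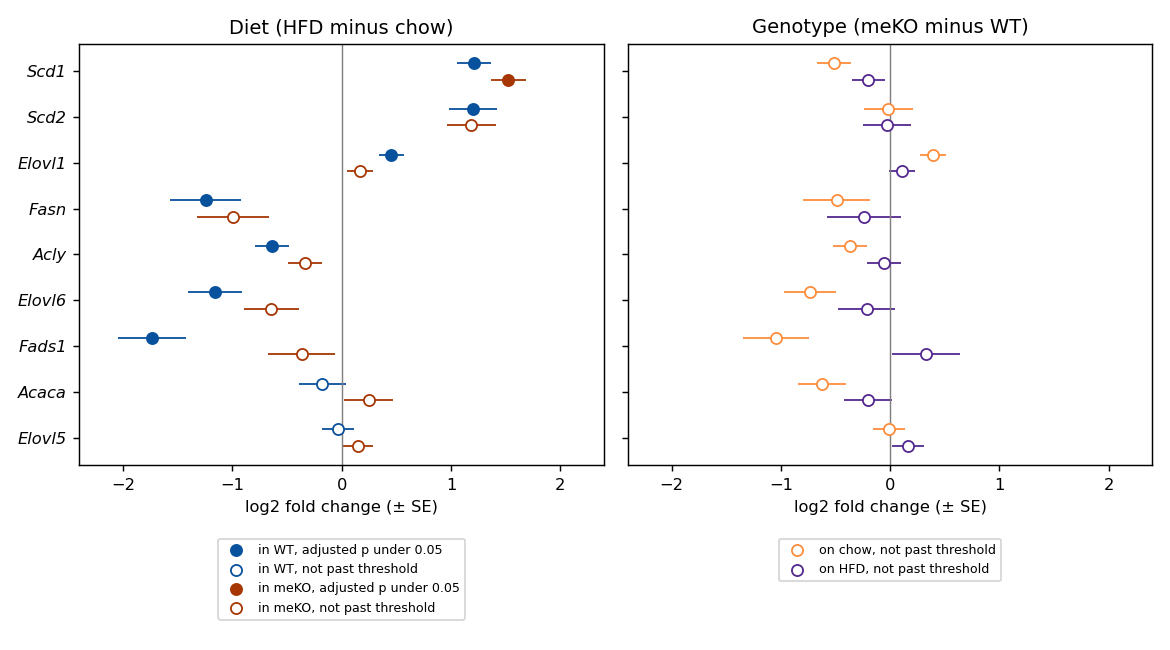
Log2 fold changes with SE (horizontal axes) of the 9 genes for diet in each genotype (left) and for genotype on each diet (right); filled points passed an edgeR adjusted p of 0.05. Scd1 is the gene filled in both genotypes, and no point is filled on the right.

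The same comparison in meKO macrophages uses no WT library, apart from the shared scaling, gene filter and estimate of spread. There 1 of the 9 genes passed, Scd1, against 0.105% of all genes, and 4 had an unadjusted p under 0.05, against 15.9%. Scd1 had 5.83, 4.45 and 4.63 CPM in meKO chow and 13.8, 14.6 and 14.6 CPM in meKO HFD. Its log2 fold change was 1.53 ± 0.16 (SE; edgeR adjusted p = 0.00200). Scd2 had 36.9, 42.0 and 25.6 CPM on chow and 100.5, 63.5 and 73.8 CPM on HFD. Its log2 fold change of 1.19 ± 0.22 missed the threshold (edgeR adjusted p = 0.0575). It passed with DESeq2 (adjusted p = 0.000117), with voom and library quality weights (0.0135) and with the length and GC offset in edgeR (0.0192; 2 of 9 genes and 0.357% of all genes passed there). All genes gave 227 calls with DESeq2 and 398 with quality weights, against 13 in edgeR, and the adjusted p of Scd2 reached 0.246 over the 22 alternatives. Without meKO chow replicate 2, the library low in Lyz2, Scd1 stood at 1.44 ± 0.18 (edgeR adjusted p = 0.0282) and Scd2 at 1.34 ± 0.25 (0.0897). With only the 6 meKO libraries fitted, Scd1 stood at 1.52 ± 0.15 (edgeR adjusted p = 0.0264) and Scd2 at 1.18 ± 0.21 (0.163). All genes gave 1 call in that fit.

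In meKO none of the 4 genes that fell in WT passed. Fasn had 3.01, 2.31 and 1.66 CPM in meKO chow and 1.42, 0.954 and 1.11 CPM in meKO HFD, without overlap. Its log2 fold change was -0.99 ± 0.33 (SE; edgeR adjusted p = 0.225), and -0.83 ± 0.26 with the offset. Elovl6 had 1.45, 1.38 and 1.52 CPM on chow and 1.12, 0.687 and 0.953 CPM on HFD, also without overlap, at -0.64 ± 0.25 (adjusted p = 0.273). The meKO groups did not overlap for 4 of the 9 genes (Scd1, Scd2, Fasn and Elovl6), against 19.7% of all genes.

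Acly had 134.2, 108.3 and 125.8 CPM in meKO chow and 117.4, 82.7 and 92.1 CPM in meKO HFD. Fads1 had 9.12, 12.9 and 12.4 CPM on chow and 9.999, 9.84 and 6.75 CPM on HFD. Groups overlapped for both, and the log2 fold changes were -0.33 ± 0.16 for Acly (SE; edgeR adjusted p = 0.317) and -0.37 ± 0.31 for Fads1 (adjusted p = 0.551). Elovl1 had 171.5, 174.9 and 167.4 CPM on chow and 171.3, 213.7 and 192.3 CPM on HFD, a log2 fold change of 0.17 ± 0.12 (adjusted p = 0.473). Acaca, with 5.50, 5.40 and 4.74 CPM on chow and 6.01, 7.78 and 4.76 CPM on HFD, stood at 0.25 ± 0.22 (adjusted p = 0.579). Elovl5, with 165.5, 125.5 and 159.2 CPM on chow and 189.3, 128.9 and 179.3 CPM on HFD, stood at 0.14 ± 0.14 (adjusted p = 0.625).

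The difference between the diet effects was tested directly. In the interaction 0 of 9 genes passed (edgeR, 0.0162% of all genes) and 1 had an unadjusted p under 0.05 (6.13%). DESeq2, voom and voom with quality weights also gave 0, where all genes gave 15, 2 and 295 calls. The gene with the unadjusted p under 0.05 was Fads1, whose fall was smaller in meKO by 1.37 ± 0.43 on the log2 scale (edgeR adjusted p = 0.773). Without WT chow replicate 1 that difference was 0.78 ± 0.29 (adjusted p = 0.999), and without WT chow replicates 1 and 2 it was 0.58 ± 0.32. For Scd2 the interaction was -0.02 ± 0.31 and for Scd1 0.32 ± 0.22 (adjusted p = 0.990 and 0.812). The interaction was 0.25 ± 0.46 for Fasn and 0.52 ± 0.35 for Elovl6, so the SE was wide beside the falls of these genes.

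Averaged over genotypes, the diet effect passed for 7 of the 9 genes, against 30.2% of all genes: 3 rose (14.9% of all genes) and 4 fell (15.3%). Scd1 rose by 1.37 ± 0.11 on the log2 scale (SE; edgeR adjusted p = 9.22e-05) and Scd2 by 1.19 ± 0.16 (adjusted p = 0.00134). Elovl1 rose by 0.31 ± 0.08 (0.0163). The falls were -1.12 ± 0.23 for Fasn (0.00740), -1.05 ± 0.22 for Fads1 (0.00755), -0.90 ± 0.18 for Elovl6 (0.00622) and -0.49 ± 0.11 for Acly (0.00975). Acaca stood at 0.03 ± 0.15 and Elovl5 at 0.06 ± 0.10. With the offset Acaca stood at 0.36 ± 0.12 and just missed the threshold (edgeR adjusted p = 0.0522). The offset moved Fasn to -0.66 ± 0.18, Fads1 to -0.91 ± 0.22, Elovl6 to -0.74 ± 0.17 and Acly to -0.27 ± 0.06. Elovl1 moved to 0.20 ± 0.05, while Scd1 and Scd2 grew to 1.53 ± 0.09 and 1.41 ± 0.13. The same 7 genes passed in 20 of 21 alternatives, the offset among them (22.2% of all genes). In the other, without both WT chow replicates 1 and 2, only Scd1 and Scd2 passed (1.50 ± 0.13 and 1.36 ± 0.21; edgeR adjusted p = 0.000560 and 0.0146). Fads1 and Elovl6 then stood at -0.66 ± 0.16 and -0.84 ± 0.21 (adjusted p = 0.0573 and 0.0674), and Fasn and Acly at -0.72 ± 0.24 and -0.32 ± 0.12 (0.125 and 0.145). Elovl1 stood at 0.20 ± 0.09 (0.208).

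Each of the 6 HFD libraries lay above each of the 6 chow libraries for 2 genes, Scd1 and Scd2, against 2.99% of all genes. For 2 others, Fasn and Elovl6, each HFD library lay below each chow library, against 2.77% of all genes. For Fasn the gap was small, from 1.56 CPM in the highest HFD library to 1.66 CPM in the lowest chow library. After correction for length and GC content the Fasn libraries overlapped. WT HFD replicate 3 then had 1.899 CPM, above WT chow replicate 3 (1.746) and meKO chow replicate 3 (1.83). Scd1, Scd2 and Elovl6 still did not overlap.

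**Figure D3:**
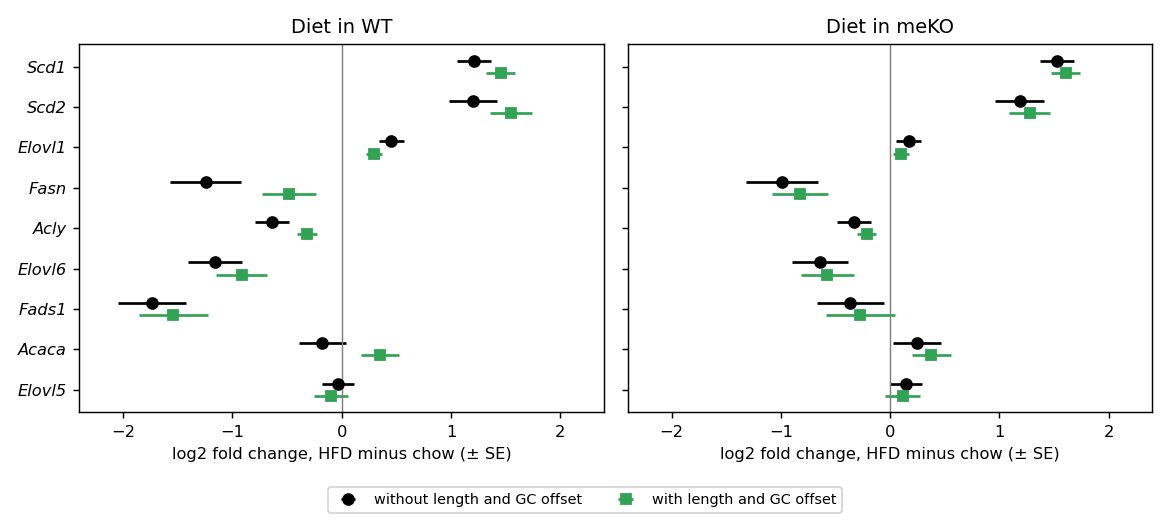
Log2 fold changes of the 9 genes for diet (HFD minus chow, horizontal axes, with SE) in WT (left) and meKO (right), without (circles) and with (squares) the offset on transcript length and GC content. In WT the offset moves Fasn from -1.25 to -0.48 and Acaca from -0.18 to 0.35, and the values of Scd1 and Scd2 grow.

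Scd1 and Scd2 were compared within each library, since a ratio does not depend on the scaling of the library. The ratio of Scd1 to Scd2 CPM was 0.204 ± 0.0301 in WT chow, 0.206 ± 0.0245 in WT HFD, 0.148 ± 0.0385 in meKO chow and 0.188 ± 0.0464 in meKO HFD (SD, n = 3). In both genotypes the chow and HFD ratios overlapped. The log2 ratio was 0.18 higher on HFD, averaged over genotypes (exact two-sided permutation test of diet within genotype, 400 arrangements, p = 0.34, where the smallest possible is 0.005). A change of the ratio with diet was not detectable at this spread.

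Among 11494 genes averaging 1 CPM or more, the 3 whose log2 CPM followed Scd1 most closely over the 12 libraries were Wt1 (Pearson's r = 0.913), Scd2 (0.897) and Ybx3 (0.885), a description in which diet is shared by all points. Wt1, a transcription factor and marker of mesothelium, stood between 0.760 and 1.63 CPM on chow and between 1.69 and 2.54 CPM on HFD. Of 12 mesothelial and fibroblast markers 11 were measured. With diet averaged over genotypes 5 of them rose (14.9% of all genes) and 0 fell (15.3%). Their summed level ran from 51.5 to 91.6 CPM in WT chow, 95.7 to 140.5 in WT HFD, 51.7 to 96.2 in meKO chow and 111.8 to 143.3 in meKO HFD. The marker Krt19 ran from 1.49 to 4.21 CPM on chow and from 4.23 to 10.8 CPM on HFD, over both genotypes. In WT, Dcn ran from 19.7 to 27.1 CPM on chow and from 33.2 to 52.2 CPM on HFD. In meKO each HFD library also lay above each chow library for Dcn. Msln, a defining mesothelial marker, was low, between 0.170 and 0.873 CPM, and its chow and HFD libraries overlapped. The part of these cells in the rise of Scd1 and Scd2 was not tested. In such bulk RNA, more cells of a type and more RNA per cell cannot be told apart.

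None of 8 adipocyte markers (Adipoq, Plin1 and Cidec among them) and none of 6 hepatocyte markers (such as Alb) is among the genes analysed. All 4 measured B cell markers fell on HFD averaged over genotypes, against 15.3% of all genes. In WT their summed level ran from 37.0 to 59.4 CPM on chow and from 16.3 to 33.6 CPM on HFD. In meKO the B cell sum ran from 26.2 to 56.2 CPM on chow and from 16.7 to 34.9 CPM on HFD. The summed level of 4 neutrophil markers ran from 9.08 to 15.6 CPM in WT chow and from 18.5 to 19.97 CPM in WT HFD. In meKO it ran from 16.6 to 20.8 CPM on chow and from 18.4 to 33.2 CPM on HFD, which overlap. Averaged over genotypes 2 of the 4 neutrophil markers rose, against 14.9% of all genes. Of 8 macrophage markers 2 rose (14.9% of all genes) and 4 fell (15.3%). Of 5 markers of resident large peritoneal macrophages 1 rose, a share near the 14.9% of all genes. Their summed level ran from 51.0 to 147.7 CPM in WT chow and from 49.2 to 81.9 CPM in WT HFD. In meKO it ran from 36.9 to 107.1 CPM on chow and from 50.7 to 68.2 CPM on HFD. By the same test 0 of 6 T and NK cell, 0 of 2 eosinophil and 0 of 5 mast cell markers passed for diet (edgeR, averaged over genotypes; 30.2% of all genes). Their part in the results was not tested.

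Next, the genotypes were compared on each diet. On chow 0 of 9 genes passed (edgeR; 0.081% of all genes), while 6 had an unadjusted p under 0.05, against 19.8% of all genes. The groups did not overlap for 5 of the 9 genes, against 17.1%: Acaca, Elovl6, Fads1 and Scd1 were lower in every meKO library and Elovl1 higher. The log2 fold changes were -1.04 ± 0.30 for Fads1 (SE; edgeR adjusted p = 0.117), -0.73 ± 0.24 for Elovl6 (0.140), -0.63 ± 0.22 for Acaca (0.157), -0.52 ± 0.16 for Scd1 (0.128) and 0.39 ± 0.12 for Elovl1 (0.122). Fasn and Acly stood at -0.49 ± 0.31 and -0.36 ± 0.16, and Scd2 and Elovl5 at -0.02 and -0.01.

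These chow values depended on the WT chow libraries and the method. DESeq2 called 2 genes (Elovl1 and Fads1), voom 0, and voom with library quality weights 7, where all genes gave 591, 2 and 4047 calls, against 10 in edgeR. Leaving out WT chow replicate 3 gave 5 calls in edgeR (Acaca, Acly, Elovl1, Fads1 and Scd1) among 2543 of all genes, so the calls rose over the whole table, and leaving out both WT chow replicates 1 and 2 gave 0. Without WT chow replicate 1 alone, Fads1 stood at -0.46 ± 0.21 (edgeR adjusted p = 0.479), and without WT chow replicates 1 and 2 at -0.25 ± 0.26. Without WT chow replicate 2 alone, Acaca stood at -0.41 ± 0.22 (adjusted p = 0.553). With the length and GC offset 0 passed (0.0324% of all genes): Acaca moved to -0.13 ± 0.18, Fasn to 0.19 ± 0.24 and Acly to -0.14 ± 0.09, while Fads1 stood at -0.93 ± 0.31 and Elovl6 at -0.50 ± 0.23. Scd1 moved to -0.31 ± 0.13 and Elovl1 to 0.25 ± 0.08. After the same correction the chow libraries overlapped for Scd1 (6.002 CPM in meKO replicate 1, 5.838 in WT replicate 2). They also overlapped for Acaca (5.826 CPM in meKO replicate 2, 5.635 in WT replicate 1). Elovl1, Elovl6 and Fads1 still did not overlap. On HFD 0 of 9 genes passed (edgeR, 0.081% of all genes) and 0 had an unadjusted p under 0.05 (4.56%). DESeq2, voom and voom with quality weights called 0 on HFD as well, where all genes gave 53, 5 and 128 calls. There the log2 fold changes ran from -0.24 ± 0.34 (Fasn) to 0.33 ± 0.31 (Fads1), and the groups overlapped for all 9, while 10.3% of all genes did not overlap. Averaged over diets 0 of 9 passed as well (edgeR, 0.17% of all genes), with 4 at an unadjusted p under 0.05 (17.7%). DESeq2 called 0 and voom with quality weights 6, where all genes gave 366 and 3835 calls. Without WT chow replicate 3 there were 3 (Acaca, Elovl1 and Scd1), among 1400 of all genes. Lyz2 lay between 69.3 and 21300 CPM in the meKO libraries and between 30500 and 53800 CPM in the WT libraries, and 2 of 4 neutrophil markers were higher in meKO averaged over diets (edgeR; 0.0891% of all genes). Their part in the genotype values was not tested.

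The wider pathway was read from a list of 36 enzymes and carriers, of which 26 were measured. Averaged over genotypes, 3 rose, 5 fell and 18 did not pass on HFD, a share near the 30.2% of all genes called, with a median log2 fold change of 0.01 beside -0.03 over all genes. Lpcat3, which places polyunsaturated chains in phospholipids, rose by 0.53 ± 0.07 (SE; edgeR adjusted p = 0.00115). Hacd1 (0.73 ± 0.15; 0.00768) and Hsd17b12 (0.32 ± 0.09; 0.0220), a dehydratase and a reductase of the elongation cycle, rose too. The falls were in Slc25a1, the mitochondrial citrate carrier (-0.35 ± 0.10; 0.0212), Tecr, the last reductase of elongation (-0.28 ± 0.08; 0.0228), and Acsl1, an acyl-CoA synthetase (-0.33 ± 0.10; 0.0242). Cyb5b, a cytochrome b5 (-0.25 ± 0.08; 0.0283), and Oxsm, of mitochondrial fatty acid synthesis (-0.30 ± 0.10; 0.0382), also fell.

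With the offset Lpcat3, Hacd1, Slc25a1, Tecr and Acsl1 passed, and Hsd17b12, Cyb5b and Oxsm did not. Acss2, which makes acetyl-CoA from acetate, stood at -0.20 ± 0.12 (edgeR adjusted p = 0.214). In WT alone 3 enzymes rose and 1 fell, against 21.3% of all genes, and in meKO 0 of 26 passed (edgeR; 0.105% of all genes), with 7 at an unadjusted p under 0.05 (15.9%). In both genotype contrasts 0 of 26 passed, with 6 at an unadjusted p under 0.05 on chow (19.8%) and 0 on HFD (4.56%).

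Of 25 regulators 23 were measured, and averaged over genotypes 4 rose (14.9% of all genes), 7 fell (15.3%) and 12 did not pass on HFD. Srebf2, which encodes SREBP-2, fell from 29.5 ± 5.75 to 10.5 ± 1.23 CPM in WT and stood at 17.4 ± 2.15 and 11.1 ± 1.38 CPM in meKO (SD, n = 3). Its averaged log2 fold change was -1.07 ± 0.11 (SE; edgeR adjusted p = 3.40e-04), and -0.72 with the offset. Insig1, an ER protein that holds SREBPs back and is itself their target, fell by 0.73 (± 0.12; adjusted p = 0.00347). Scap, their escort to the Golgi, fell by 0.52 (± 0.12; 0.0103). Srebf1, which encodes SREBP-1, stood at 29.6 ± 3.53 CPM in WT chow, 31.4 ± 4.46 in WT HFD, 31.6 ± 4.61 in meKO chow and 30.5 ± 5.57 in meKO HFD. Its log2 fold change was 0.02 ± 0.11 (edgeR adjusted p = 0.921), but with the offset it rose by 0.33 (adjusted p = 0.00629).

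Nr1h3, which encodes LXR alpha, rose from 63.6 ± 4.30 to 96.0 ± 11.7 CPM in WT and stood at 82.8 ± 7.69 and 112.1 ± 8.12 CPM in meKO (SD, n = 3). The averaged rise was 0.52 ± 0.08 on the log2 scale (SE; edgeR adjusted p = 0.00347). Pparg, a lipid-sensing nuclear receptor, rose by 0.47 ± 0.12 (0.0138), and Nfyc, a subunit of NF-Y, by 0.29 ± 0.08 (0.0199). Rxra, the partner of LXR, fell by 0.75 (± 0.12; 0.00312) and Ppard by 0.56 (± 0.11; 0.00670). Mlxipl, which encodes the glucose-sensing factor ChREBP, had at most 3.14 ± 1.50 CPM (meKO chow) and did not pass (-0.26 ± 0.38; 0.630). In meKO alone 0 of 23 regulators passed, with 8 at an unadjusted p under 0.05 (15.9% of all genes), and in WT 2 rose (9.5%) and 6 fell (11.8%). Among the regulators, values with the offset are given here for Srebf2 and Srebf1 only, and none without WT chow replicates 1 and 2. Over all genes the averaged diet effect fell with transcript length (Spearman's rho of -0.517), so the other regulator values carry that limit.

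**Figure D4:**
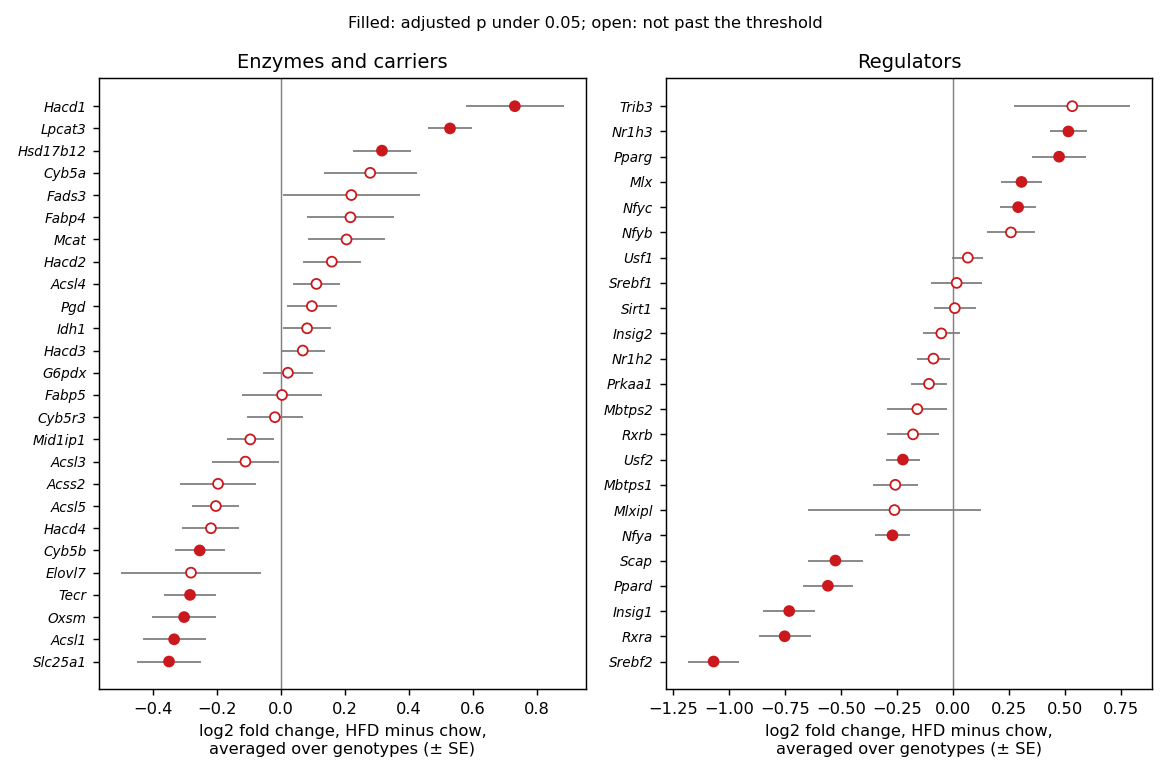
Log2 fold change of HFD minus chow, averaged over genotypes, with SE (horizontal axes), for the 26 measured enzymes and carriers (left) and the 23 measured regulators (right), sorted by value; filled points passed an edgeR adjusted p of 0.05. Hacd1 and Lpcat3 lead the rises on the left, and Srebf2 the falls on the right.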

How the data were processed

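RNA-seq of total RNA was measured in 12 libraries, made with the TruSeq protocol per the labels' protocols. The deposited table holds whole-number counts per gene for 12339 genes, 186 of them without a symbol; the authors' filter on low counts is not stated, so a gene high in 1 group could be missing. The submitters' processing notes name mm10 and DESeq2; the aligner, counter and strand setting are not given in the sources used here. Groups came from the genotype and treatment labels, and replicate numbers follow accession order. Counts were fitted over all genes and all 12 libraries with edgeR (version 4.0.16; R version 4.3.3; scaling by TMM, filterByExpr, robust quasi-likelihood test, two-sided, Benjamini-Hochberg adjustment over all genes, threshold 0.05). Alternatives used DESeq2 1.42.0, voom from limma 3.58.1 with and without library quality weights, other scalings and filters, each library left out, and an offset for transcript length and GC content (GENCODE lengths for 93.46% of genes). Leaving out both WT chow replicates 1 and 2 was chosen after seeing the data. No 2 libraries of a group agreed within sampling noise (chi-square per degree of freedom 16.9 or more). P-values measure the spread between these libraries, which may be technical. From the wider lists, up to 8 genes per list with the smallest adjusted p for diet among those called in any comparison are named, plus Srebf1, Srebf2, Nr1h3, Mlxipl, Insig1 and Acss2. The members and lists were chosen with earlier results of these data known. The edgeR script was tested on simulated data. The gene carried by the AAV8 vector is not reported here.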

Additional observations from a re-analysis of the deposited data

How the results depend on the processing

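No paired analysis was possible because replicate numbers follow accession order and the labels carry none. The 7 diet calls averaged over genotypes were the same 7 genes in 20 of 21 alternatives; with both WT chow replicates 1 and 2 left out 2 remained, and 1 of the 7 in WT alone. With 1 library omitted at a time, calls ran from 2 to 7 for diet in WT, where all genes gave 96 to 4921. Calls ran from 0 to 5 for genotype on chow and from 0 to 3 for genotype averaged over diets. The 5 and the 3 came without WT chow replicate 3, among 2543 and 1400 calls over all genes. For diet in meKO there were 2 calls with DESeq2, 2 with voom and library quality weights and 2 with the length and GC offset. All genes gave 227, 398 and 44 calls in these settings. For genotype on chow there were 2 with DESeq2 and 7 with voom and quality weights, among 591 and 4047 calls over all genes. Quality weights gave 6 for genotype averaged over diets, among 3835 calls over all genes. The cause was not tested.

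Of all log2 fold changes recomputed, 54 changed sign, and 0 of these passed in either setting. With the length and GC offset, Scd2 moved to 0.29 (genotype on chow), 0.018 (genotype on HFD) and 0.15 (genotype averaged), Fasn to 0.19, -0.34 (interaction) and 0.015 (genotype averaged), and Acaca to 0.35 (diet in WT). With both WT chow replicates 1 and 2 left out, genotype on chow gave Scd2 0.32, Fasn 0.31 and Elovl5 0.027, diet in WT gave Acaca 0.28 and Elovl5 0.0070, the interaction gave Fasn -0.55, Acaca -0.042 and Acly -0.036, and genotype averaged over diets gave Scd2 0.14, Fasn 0.033 and Fads1 0.035. Scaling by library totals gave Scd2 0.047 (interaction), Acaca -0.030 and Elovl5 -0.0032 (diet averaged), and voom with quality weights gave Acaca -0.0030 (diet in meKO) and -0.11 (diet averaged).

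With 1 library omitted at a time, the values with a change of sign ran as follows. Scd2 ran from -0.16 to 0.16 (genotype on chow), -0.24 to 0.095 (genotype on HFD), -0.22 to 0.13 (interaction) and -0.13 to 0.065 (genotype averaged). Elovl5 ran from -0.079 to 0.11 (genotype on chow), -0.071 to 0.051 (diet in WT) and -0.0020 to 0.13 (diet averaged). Acaca ran from -0.35 to 0.040 (diet in WT) and -0.066 to 0.14 (diet averaged), Acly from -0.22 to 0.036 (genotype on HFD) and Fasn from -0.051 to 0.51 (interaction). Depth limits Fasn and Elovl6 most, with 25 and 18 counts in their lowest libraries.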
